A study of Mus musculus with 8 samples.

Results

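Expression of the genes of fatty acid oxidation and ketone body formation was compared between mouse AML12 hepatocytes carrying a stable Zfp125 construct and those carrying only the empty vector (EV), on 4 arrays per group. AML12 is an immortal line, and Zfp125 encodes a zinc finger protein. Cells of both groups had been selected with G418 and were kept in control medium. The labels do not give the vector's promoter, nor whether the cells were pools or single clones, nor whether the 4 samples of a group were separate cultures, so each p-value reflects the scatter of these 8 arrays alone, part or all of which may be technical. Zfp125 has no named cluster in the annotation used, and the groups could therefore not be checked by the level of the introduced gene. The members were 36 genes, and every transcript cluster (the probes of 1 gene model on the MoGene 2.0 ST array) that the platform annotation gives to any of them, alone or with others, was taken. This gave 38 of the 41345 clusters in the table, with at least 1 for each of the 36 genes, and no filter on low values was applied. Crat and Acot4 had 2 clusters each, and 1 cluster was shared by Gm44502, Cpt1b and Chkb, so its values cannot be assigned to Cpt1b alone.

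In hepatocytes, long-chain fatty acids are linked to carnitine to enter mitochondria, where a repeated spiral of dehydrogenation, hydration, dehydrogenation and thiolysis removes acetyl-CoA and passes electrons through the electron transfer flavoprotein to the respiratory chain. Very-long-chain and branched fatty acids are first shortened in peroxisomes. During fasting the liver turns acetyl-CoA into ketone bodies, and the nuclear receptor PPAR-alpha, with which many of these genes are induced, is the best known regulator of the programme. The hepatocyte markers were bright on these arrays, with EV means on the log2 scale from 8.71 for Hnf4a to 12.96 for Alb. Those of leukocytes lay between 3.09 and 5.50 and those of endothelium between 4.35 and 4.76. Stellate cell and fibroblast markers lay between 3.59 and 5.52. Sox9 and Krt19, genes of bile duct and progenitor cells, had EV means of 9.75 and 8.15, Krt7 one of 6.34 and Epcam one of 2.73. None of the marker clusters passed the test between groups over the whole table, where the smallest limma adjusted p among them was 0.0794, for Alb. Their adjusted p over other sets of clusters is not given here. Of the 7 hepatocyte marker clusters, 4 were lower in Zfp125 cells with no overlap between groups, beside 3.03% of all clusters, and changes over the list ran from -0.84 (Cps1) to 0.08 (Ttr). At an unadjusted p under 0.05, 5 of the 7 were lower and 0 higher, beside 4.52% and 4.91% of all clusters. Among clusters at or above the median level, 12.05% had such a p in either direction. Of the bile duct markers, Sox9 was higher without overlap (3.2% of all clusters), with a change of 0.28 ± 0.09. Krt19 had a change of -0.14 ± 0.11, and Epcam and Krt7 of 0.03 each. Changes over the stellate cell and fibroblast list ran from -0.22 to 0.34, both in clusters of Des, the former shared with Gm15179. The part of these cell types in the results below was not tested. In bulk RNA fewer cells of a type and less RNA per cell cannot be told apart.

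None of the 38 clusters passed the test between Zfp125 and EV cells (limma, adjusted p from 0.229 to 0.988 over the whole table, called at an adjusted p under 0.05), where 0.148% of all clusters did (0.0242% higher and 0.123% lower in Zfp125 cells). At an unadjusted p under 0.05, 5 members were lower in Zfp125 cells and 0 were higher, beside 4.52% and 4.91% of all clusters (9.43% in either direction). These 5 were Acaa2, Bdh1, Acot3, Echs1 and Ehhadh, 13.16% of the 38 clusters. Only 3 of the 38 lay below the median level of all clusters, 4.34. Of the clusters at or above that level, 12.05% had such a p in either direction, close to the share among members in either direction. The shares of these brighter clusters by direction were not taken, so the lower and higher counts of members cannot be set against them. The 4 arrays of each group did not overlap for 5 members that were lower and 1 that was higher, beside 3.03% and 3.2% of all clusters (6.23% in either direction). For clusters at or above the median level this share was not taken, so members cannot be set against clusters of like brightness here. Changes are log2 differences, Zfp125 minus EV, each given ± its moderated standard error. They ran from -0.45 for Bdh1 to 0.27 for Slc25a20, with a median of 0.02 (median over all clusters -0.00095). Of the 38, 20 were above 0 and 18 below (49.7% and 50.3% of all clusters). The 95% interval of the change lay within 0.5 log2 units of 0 for 32 clusters. It reached past that bound for Acaa2, Bdh1 and Acot3 on the lower side and for Slc25a20, Hadhb and Acot1 on the higher side.

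**Figure D1:**
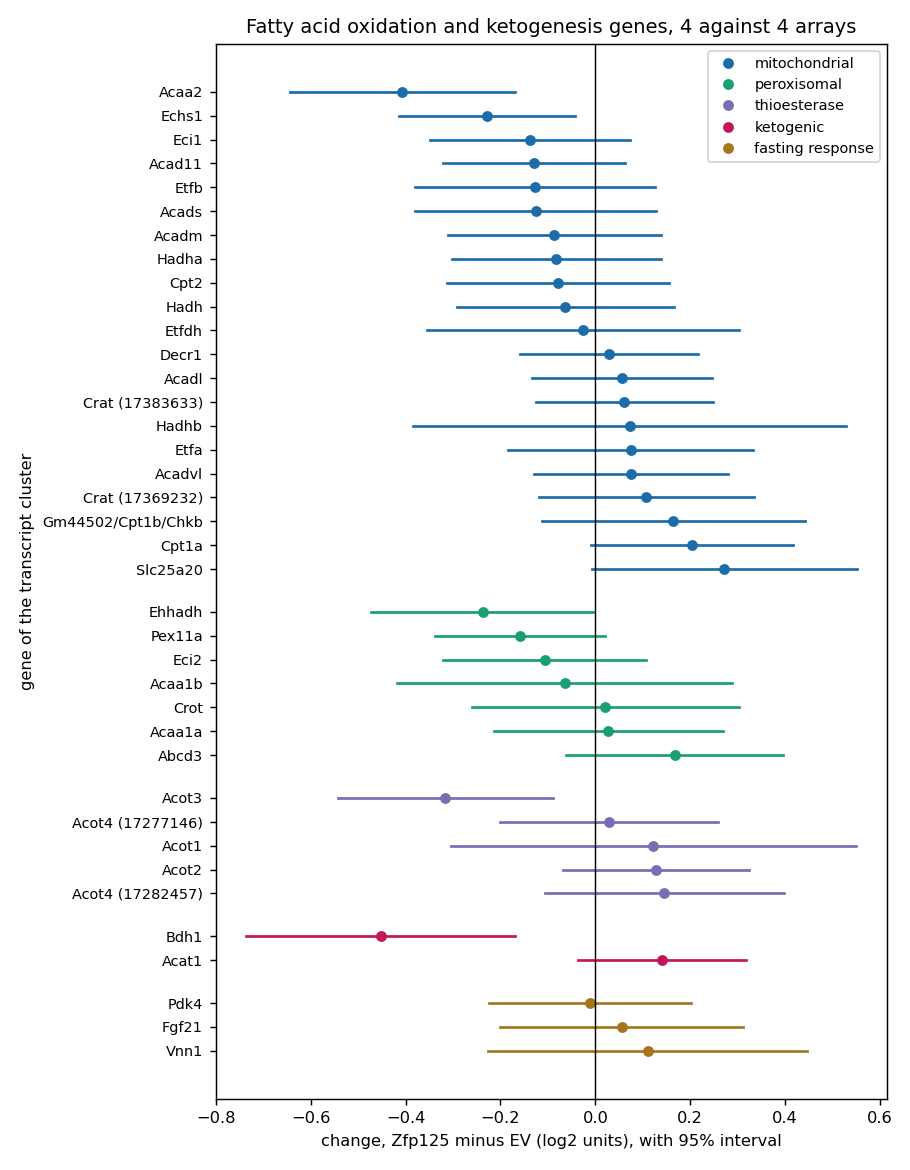
Change of each of the 38 member clusters (points, Zfp125 minus EV, log2 units) with its 95% interval (bars), 4 arrays in each group, coloured by class and ordered by change within a class. Acaa2 and Bdh1 lie lowest, at -0.41 and -0.45, most intervals include 0, and no cluster passed the adjusted test.

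Among the mitochondrial genes, 0 of the 6 clusters of the carnitine shuttle, which carries fatty acids across the membranes, passed the test, 0 had an unadjusted p under 0.05, and the groups overlapped in all 6. Their changes had a median of 0.14 and were above 0 in 5, among them the cluster shared with Cpt1b. Slc25a20, the carnitine-acylcarnitine carrier of the inner membrane, had log2 values of 6.92, 6.69, 6.48 and 6.84 on EV arrays 1 to 4 and of 7.15, 7.14, 6.90 and 6.84 on Zfp125 arrays 1 to 4. Replicates 1 and 2 of the Zfp125 cells were above every EV array, and replicates 3 and 4 lay within the EV range. The change was 0.27 ± 0.12 (95% interval -0.01 to 0.55, limma adjusted p = 0.543). Cpt1a, the liver form of the carnitine palmitoyltransferase that controls entry into the pathway, was bright, with 9.61, 9.49, 9.48 and 9.63 in EV cells and 9.78, 9.85, 9.83 and 9.56 in Zfp125 cells. On replicates 1 to 3 the Zfp125 values exceeded every EV array, and the change was 0.20 ± 0.10 (interval -0.01 to 0.42, adjusted p = 0.556). Cpt2, which returns the acyl group to CoA inside the mitochondrion, had a change of -0.08 ± 0.10. Crat, the carnitine acetyltransferase of short chains, had changes of 0.11 ± 0.10 and 0.06 ± 0.08 in its 2 clusters. The cluster shared with Cpt1b, the muscle form, had 0.16 ± 0.12.

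The acyl-CoA dehydrogenases take the first step of the spiral, each on its own range of chain lengths. Their 5 clusters had changes between -0.13 and 0.08, groups overlapped in all 5, and all 5 intervals lay within 0.5 log2 units of 0. Acadvl, for very long chains, had EV values of 7.55, 7.36, 7.54 and 7.46 and Zfp125 values of 7.49, 7.71, 7.56 and 7.45, with means of 7.48 ± 0.09 and 7.55 ± 0.11 (SD, n = 4 each). Acadl and Acadm, for long and medium chains, had changes of 0.06 ± 0.08 and -0.09 ± 0.10. Acads, for short chains, had -0.13 ± 0.11, and Acad11, which works on long chains and is also found in peroxisomes, had -0.13 ± 0.09 (interval -0.32 to 0.06). Of the proteins that collect the electrons, Etfa and Etfb are the subunits of the electron transfer flavoprotein and had changes of 0.08 ± 0.11 and -0.13 ± 0.11. Etfdh, the membrane enzyme that hands the electrons to ubiquinone, had a change of -0.03 ± 0.15. Its 4 Zfp125 values were far apart, at 7.51, 7.65, 7.15 and 7.03, against 7.41, 7.17, 7.39 and 7.47 in EV cells.

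The later steps of the spiral held the mitochondrial members with the smallest p. Acaa2, the thiolase that splits off acetyl-CoA in the last step, had log2 values of 8.25, 8.23, 8.26 and 8.56 in EV cells and of 7.98, 8.03, 7.90 and 7.76 in Zfp125 cells. Every Zfp125 array lay below every EV array, with a gap of 0.200 between the groups. The means were 8.32 ± 0.16 and 7.92 ± 0.12 (SD, n = 4 each), and the change of -0.41 ± 0.11, 0.754 times the EV level, did not pass the adjusted test (interval -0.64 to -0.17, unadjusted p = 0.00356, limma adjusted p = 0.229). Echs1, the short-chain enoyl-CoA hydratase of the second step, had 7.66, 7.51, 7.59 and 7.57 in EV cells and 7.26, 7.45, 7.40 and 7.31 in Zfp125 cells. Its groups were apart too, by 0.0631, and the change was -0.23 ± 0.08 (interval -0.41 to -0.04, adjusted p = 0.413). The other enzymes of these steps overlapped between groups. Eci1, the isomerase that lets unsaturated fatty acids enter the spiral, had -0.14 ± 0.09, Decr1, the dienoyl-CoA reductase with the same task, 0.03 ± 0.08, and Hadh, the short-chain hydroxyacyl-CoA dehydrogenase, -0.06 ± 0.10.

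Hadha and Hadhb encode the alpha and beta subunits of the trifunctional protein, which carries out the steps after the first on long chains. Hadha had EV values of 8.65, 8.54, 8.58 and 8.82 and Zfp125 values of 8.64, 8.67, 8.54 and 8.42, a change of -0.08 ± 0.10. Hadhb had 3.82, 3.14, 3.62 and 3.47 against 3.92, 3.90, 3.31 and 3.21, a change of 0.07 ± 0.20. The Hadhb cluster was dim, with both group means (3.51 and 3.58) below the median level of all clusters, 4.34, and its interval of -0.38 to 0.53 was among the widest of the members. The 2 genes lie head to head in RefSeq's GRCm38.p6, with 272 bases between their listed starts, so they share 1 upstream region. Neither change passed the test. The 250 bases upstream of Hadha (chr5:30154981-30155230, minus strand), shown because most of this stretch also lies upstream of Hadhb, held neither CCAAT nor AGGTCA on either strand.
Hadha: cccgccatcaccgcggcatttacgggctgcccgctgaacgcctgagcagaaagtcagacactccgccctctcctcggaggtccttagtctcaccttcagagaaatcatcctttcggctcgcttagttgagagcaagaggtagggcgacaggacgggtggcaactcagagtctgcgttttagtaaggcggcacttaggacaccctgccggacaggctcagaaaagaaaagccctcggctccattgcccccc

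In the 7 peroxisomal clusters, 3 changes were above 0 and 4 below, with a median of -0.06. An unadjusted p under 0.05 was found in 1 (in either direction, 9.43% of all clusters and 12.05% of those at or above the median level). That was Ehhadh, the bifunctional hydratase and dehydrogenase of peroxisomal oxidation and a PPAR-alpha target, with 5.09, 4.90, 5.28 and 5.22 in EV cells and 4.75, 4.96, 4.95 and 4.88 in Zfp125 cells. Replicate 2 of the EV cells lay within the Zfp125 range, and the other 3 EV arrays were above it. The change was -0.24 ± 0.10 (unadjusted p = 0.0482, limma adjusted p = 0.524). Pex11a, a membrane protein of peroxisome division, was lower without overlap, with 5.53, 5.66, 5.57 and 5.55 against 5.45, 5.44, 5.47 and 5.31. Its change was small, -0.16 ± 0.08 (interval -0.34 to 0.02, adjusted p = 0.59). Abcd3, an importer of fatty acyl-CoA into peroxisomes, had 7.04, 6.91, 6.79 and 7.09 against 7.12, 7.29, 7.08 and 7.0, a change of 0.17 ± 0.10. The peroxisomal thiolases Acaa1a and Acaa1b, near-identical copies whose probes may take up each other's RNA, had changes of 0.03 ± 0.11 and -0.06 ± 0.16. Eci2, an isomerase found in peroxisomes and mitochondria, had -0.11 ± 0.10, and Crot, which makes carnitine esters of the shortened chains, had 0.02 ± 0.13.

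Acot1 (cytosol), Acot2 (mitochondria), Acot3 and Acot4 (peroxisomes) are acyl-CoA thioesterases, which release free fatty acids from CoA. None of the class passed the test, and Acot3 had its smallest p, with values of 5.39, 5.35, 5.33 and 5.42 in EV cells and of 4.93, 5.03, 4.95 and 5.31 in Zfp125 cells. The groups were separated by only 0.0212, since replicate 4 of the Zfp125 cells reached 5.31 and the other 3 lay between 4.93 and 5.03. The change was -0.32 ± 0.10, 0.803 times the EV level (interval -0.54 to -0.09, unadjusted p = 0.0113, limma adjusted p = 0.344). None of the other 3 genes had an unadjusted p under 0.05, and whether their changes differ from that of Acot3 was not tested. Acot2 had 8.19, 7.98, 8.10 and 8.24 against 8.31, 8.28, 8.23 and 8.21, a change of 0.13 ± 0.09 (adjusted p = 0.711). Acot4 had 5.60, 5.53, 5.78 and 5.60 against 6.05, 5.65, 5.73 and 5.66 in cluster 17282457, a change of 0.15 ± 0.11. In its cluster 17277146 it had 4.54, 4.43, 4.78 and 4.53 against 4.71, 4.67, 4.54 and 4.48, a change of 0.03 ± 0.10. The groups of Acot2 and of both Acot4 clusters overlapped. Acot1 had 7.33, 7.29, 7.04 and 7.45 against 7.66, 7.79, 7.24 and 6.90, so that its Zfp125 arrays held both the highest and the lowest values of all 8, and the change was 0.12 ± 0.19 (interval -0.30 to 0.55). These paralogs are close in sequence, and how far a probe of one takes up RNA of another is not given in the sources used here.

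In RefSeq's GRCm38.p6 the 4 genes lie near each other on chromosome 12 in the order Acot2, Acot1, Acot4, Acot3, with the non-coding Gm40474 between Acot1 and Acot4. Beyond Acot3 follow Acot5 and, after the pseudogene Gm8385, Acot6, which had changes of 0.01 ± 0.12 and 0.05 ± 0.12. Their upstream sequences are shown because these paralogs lie together and Acot3 is among the members with the smallest p, as the 250 bases before each listed start, 5′ to 3′ and all on the plus strand. Capitals mark CCAAT and the single receptor element AGGTCA, on either strand (ATTGG and TGACCT are their complements). Acot2 lies at chr12:83987611-83987860, Acot1 at chr12:84009252-84009501, Acot4 at chr12:84038129-84038378 and Acot3, from the first of its 2 listed starts, at chr12:84051894-84052143.
Acot2: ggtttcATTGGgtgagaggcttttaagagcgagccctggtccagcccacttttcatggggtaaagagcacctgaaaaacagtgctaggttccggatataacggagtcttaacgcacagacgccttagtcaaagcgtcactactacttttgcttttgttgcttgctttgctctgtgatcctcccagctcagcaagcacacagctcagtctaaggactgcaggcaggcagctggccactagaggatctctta
Acot1: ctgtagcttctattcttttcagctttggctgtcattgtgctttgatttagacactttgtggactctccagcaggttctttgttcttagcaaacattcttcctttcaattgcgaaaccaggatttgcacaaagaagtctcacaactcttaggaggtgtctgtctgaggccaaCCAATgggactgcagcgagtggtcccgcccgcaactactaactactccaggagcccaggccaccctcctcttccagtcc
Acot4: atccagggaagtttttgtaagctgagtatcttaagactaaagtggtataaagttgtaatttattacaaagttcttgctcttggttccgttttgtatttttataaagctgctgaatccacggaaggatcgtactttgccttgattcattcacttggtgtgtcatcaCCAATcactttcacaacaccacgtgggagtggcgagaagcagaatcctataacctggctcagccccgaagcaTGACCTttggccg
Acot3: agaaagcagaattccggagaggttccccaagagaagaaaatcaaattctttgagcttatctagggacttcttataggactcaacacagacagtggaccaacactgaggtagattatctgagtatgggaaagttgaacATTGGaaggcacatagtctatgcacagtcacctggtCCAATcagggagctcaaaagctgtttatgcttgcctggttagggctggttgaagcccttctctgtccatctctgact

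Each of these 4 windows held CCAAT, 2 times in Acot3 and 1 time in each of the others, and Acot4 alone among them held AGGTCA, as TGACCT near its end. In global alignments the 6 pairs among the 4 windows were identical at 49.5% to 51.9% of columns. Pairs of an Acot window with that of Echs1, Bdh1 or Pex11a reached 45.9% to 51.5%, so the Acot windows were about as unlike each other as they were unlike those of other members. Of the 36 members, 30 had an entry in the promoter table, with 33 windows of 250 bases. CCAAT was found in 51.5% of these windows and in 33.8% of all 32851, AGGTCA in 15.2% and 14%. AGGTCA repeated in the same direction with 1 base between, the form bound by PPAR-alpha with its partner receptor, and the looser repeat of AGGNCA, whose matches include it, were found in 0 of the 33 member windows and in 0.0335% and 0.338% of all windows. Both strands were searched, and the absence of these letters concerns these windows only. Repeats as rare as these are unlikely in any 33 windows, so no lack of them among members can be read from it. The window of Echs1 (chr7:140116422-140116671, minus strand) is shown because, of the 5 members with an unadjusted p under 0.05, it is the only one with AGGTCA there (Acaa2 had no entry).
Echs1: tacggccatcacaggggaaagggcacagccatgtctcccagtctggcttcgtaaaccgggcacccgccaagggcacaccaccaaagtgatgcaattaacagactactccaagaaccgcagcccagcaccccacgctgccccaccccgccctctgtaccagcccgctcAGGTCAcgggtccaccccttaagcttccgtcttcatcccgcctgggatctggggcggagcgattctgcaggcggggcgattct

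Neither of the 2 ketogenic members passed the test. Bdh1, the mitochondrial dehydrogenase that converts acetoacetate and 3-hydroxybutyrate into each other, had log2 values of 4.98, 4.69, 5.25 and 5.10 in EV cells and of 4.45, 4.65, 4.47 and 4.64 in Zfp125 cells. Every Zfp125 array was lower than every EV array, but replicate 2 of the EV cells came within 0.0428 of the highest Zfp125 array. The means were 5.0 ± 0.24 and 4.55 ± 0.11 (SD, n = 4 each), a change of -0.45 ± 0.13 or 0.731 times the EV level (interval -0.74 to -0.17, unadjusted p = 0.00546, limma adjusted p = 0.271). Acat1, the mitochondrial thiolase that joins acetyl-CoA into acetoacetyl-CoA, had 7.88, 7.79, 7.86 and 7.87 against 7.91, 8.10, 7.99 and 7.96. It was the only member that was higher without overlap, by a change of 0.14 ± 0.08 (interval -0.04 to 0.32, adjusted p = 0.637).

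**Figure D2:**
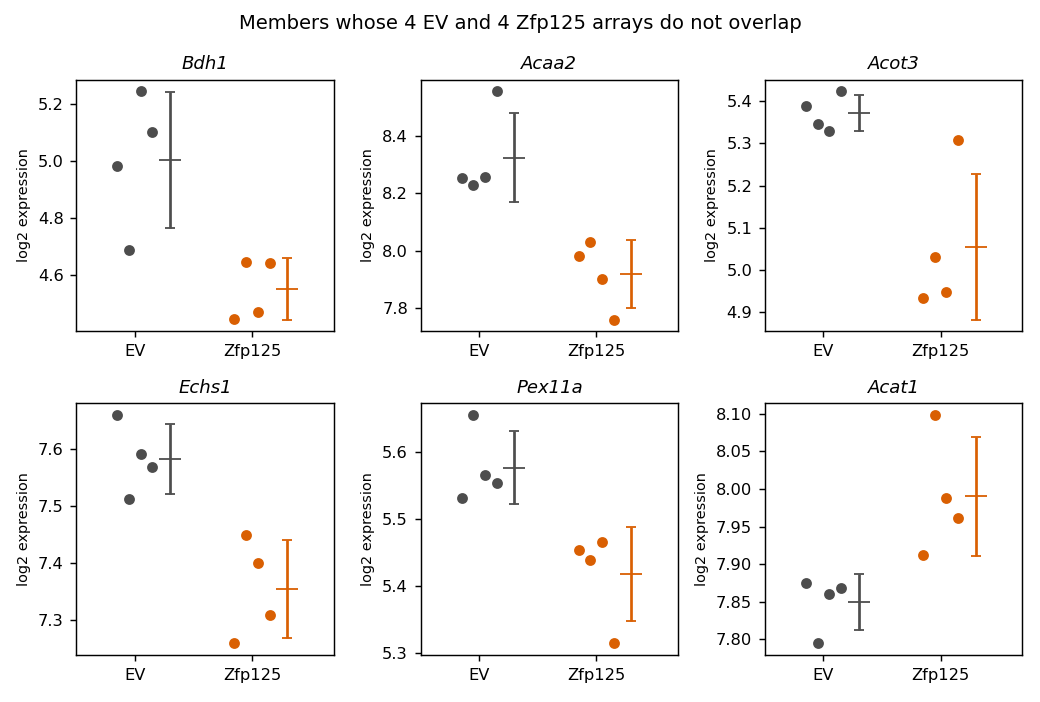
Log2 expression on each array (points) with group mean and SD (bars) for the 6 members whose 4 EV and 4 Zfp125 arrays do not overlap, each panel on its own axis that does not start at 0. Bdh1, Acaa2, Acot3, Echs1 and Pex11a are lower in Zfp125 cells and Acat1 is higher, with the widest gap, 0.200, for Acaa2.

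Fgf21, Pdk4 and Vnn1, which PPAR-alpha induces in fasted liver, gave no difference that the arrays could resolve. Pdk4, the kinase that turns off pyruvate dehydrogenase when fat is burned, had 5.19, 5.25, 5.02 and 5.07 in EV cells and 5.2, 4.99, 5.06 and 5.24 in Zfp125 cells. The groups covered nearly the same range, and the change was -0.01 ± 0.09 (interval -0.22 to 0.20, adjusted p = 0.988). Fgf21, a liver hormone of the fasting state, had 3.92, 3.96, 4.18 and 4.37 against 4.27, 4.15, 4.06 and 4.17, a change of 0.06 ± 0.11. Vnn1, the pantetheinase of hepatocytes, had 3.70, 3.66, 4.25 and 3.52 against 3.94, 3.96, 3.84 and 3.83, a change of 0.11 ± 0.15. The clusters of Fgf21 and Vnn1 were below the median level of all clusters, 4.34, on average, and no call of signal above background was used here.

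Within a group, most members lay on the same side of their group mean on some arrays. In the Zfp125 group, 33 of the 38 clusters lay above their own group mean on replicate 2, 27 on replicate 1, 7 on replicate 3 and 6 on replicate 4, while 48.7% to 51.2% of all clusters did so on these arrays. The share among clusters at or above the median level, where most members lie, was not taken. Whether the pattern is particular to the members was therefore not examined. The median deviation of the members from the group mean was 0.10 on replicate 2 and -0.10 on replicate 4, and over all clusters it lay between -0.0046 and 0.0045 on the Zfp125 arrays. Among the EV arrays, 23, 9, 15 and 23 of 38 lay above the group mean on replicates 1 to 4. The median size of the change between groups over the 38 clusters was 0.11. The median change of the 21 mitochondrial clusters was -0.03 with all arrays, 0.05 without Zfp125 replicate 4 and -0.09 without Zfp125 replicate 2. That of the 7 peroxisomal clusters went from -0.06 to 0.02 without Zfp125 replicate 4. What these arrays share besides was not tested.

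**Figure D3:**
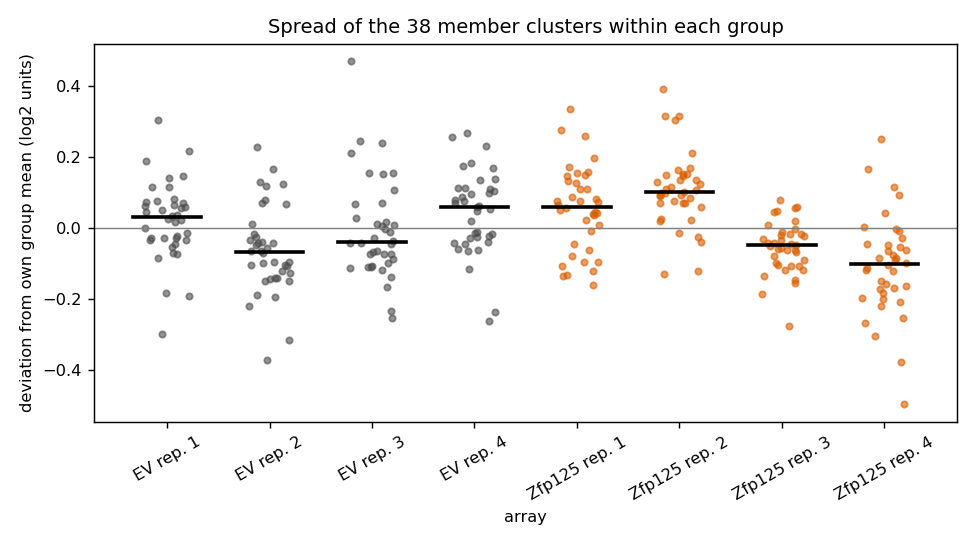
Deviation of each of the 38 member clusters from the mean of its own group (points, log2 units) on each of the 8 arrays, with the median over members (bars). In the Zfp125 group replicate 2 has 33 of 38 clusters above the group mean and replicate 4 has 6 of 38.

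Other genes of the pathway were taken from 11 lists of 161 genes, of which 149 had 166 clusters and 12 are not analysed here, 3 of these from the ketone body list. None of these clusters passed the test over the whole table, 19 were lower and 6 higher at an unadjusted p under 0.05 (4.52% and 4.91% of all clusters), and 12 were lower and 8 higher without overlap (3.03% and 3.2%). Their median change was -0.02, and 36 of them lay below the median level of all clusters. At or above that level, 12.05% of clusters had an unadjusted p under 0.05 in either direction. The ketone body list had the lowest median, -0.19 over 10 clusters, 8 of them below 0. Slc16a7, a transporter of pyruvate, lactate and ketone bodies, had 5.96, 5.58, 6.13 and 6.07 in EV cells and 5.04, 5.16, 5.12 and 5.22 in Zfp125 cells. The groups were clearly apart, and the change of -0.80 ± 0.12, 0.575 times the EV level, had a limma adjusted p of 0.0575, and of 0.0218 without EV replicate 2. Over all its alternatives the adjusted p ran from 0.00467 to 0.188, and no omission of any other array brought it under 0.05. Oxct1, which activates acetoacetate for use as fuel, had -0.30 ± 0.10 (adjusted p = 0.356).

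Among the 20 clusters of other peroxisomal enzymes the median change was -0.13, 15 were below 0 (50.3% of all clusters), and 6 clusters of 5 genes were lower and 0 higher at an unadjusted p under 0.05 (4.52% and 4.91%). Only 1 of the 20 lay below the median level of all clusters. At or above that level, 12.05% of clusters had such a p in either direction. The cluster of Acot8 among those lower is shared with Snx21. Phyh, the hydroxylase that starts the breakdown of the branched phytanic acid, was lower without overlap in both of its clusters, by changes of -0.54 ± 0.12 (adjusted p = 0.158) and -0.65 ± 0.20 (adjusted p = 0.326). Acox2, the oxidase of branched chains and bile acid precursors, had 8.55, 8.27, 8.45 and 8.72 against 7.93, 8.15, 7.75 and 7.55, a change of -0.65 ± 0.15 (adjusted p = 0.161). Cat, the catalase of peroxisomes, named after its values were seen, was the cluster of this list that was higher without overlap, by 0.17 ± 0.08 (adjusted p = 0.548). The 12 clusters of peroxisome biogenesis genes had a median of -0.00065 and 0 with an unadjusted p under 0.05, with Pex13 and Pex14 at 0.15 ± 0.08 and 0.15 ± 0.09. Over genes with 1 symbol and their brightest clusters, 240 of 22180 genes (1.08%) passed, 4 of them from these lists and 0 of them members, and 1.03% of clusters with a symbol passed. These 4 were Slc16a7 (adjusted p = 0.00467), Fabp1 (0.0119), Acox2 (0.0339) and Phyh (0.0374), so their calls depend on the set of clusters tested, while the smallest adjusted p of a member there was 0.092, for Acaa2.

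**Figure D4:**
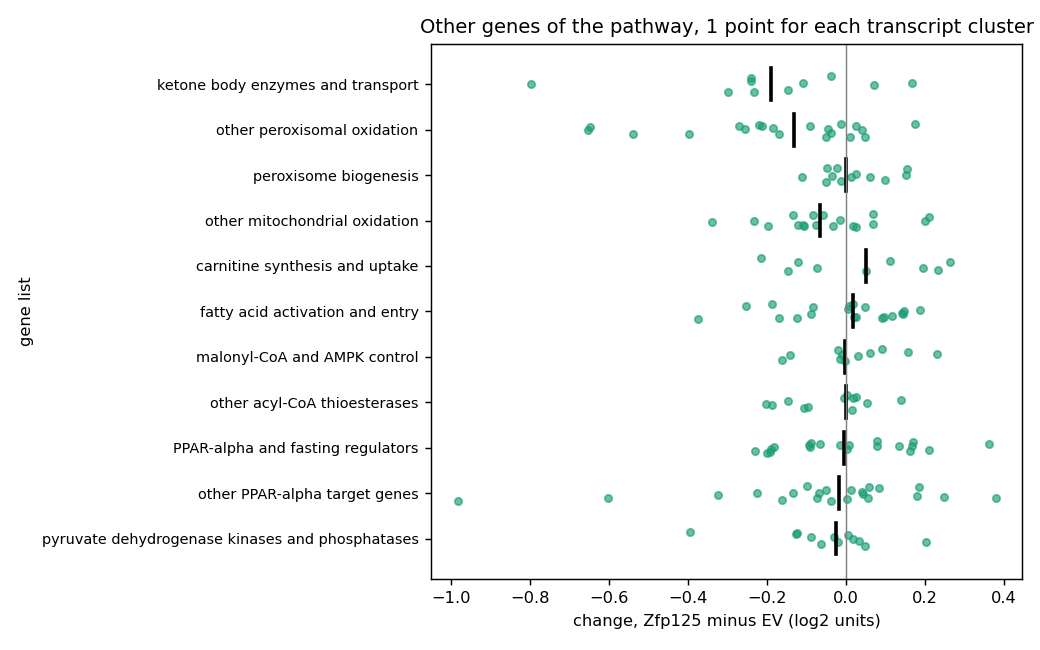
Change (points, Zfp125 minus EV, log2 units) of the 166 clusters of the 11 other lists of the pathway, with the median of each list (bars). The lists of ketone body genes and of other peroxisomal oxidation have the lowest medians, -0.19 and -0.13, and the others lie between -0.07 and 0.05.

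The remaining lists had medians between -0.07 and 0.05. The 22 clusters of PPAR-alpha targets beyond the members had 11 changes above 0 and 11 below. At an unadjusted p under 0.05, 3 were lower and 2 higher (4.52% and 4.91% of all clusters). Fabp1, the liver fatty acid binding protein, had a change of -0.98 ± 0.19 (limma adjusted p = 0.107) and Cd36, a fatty acid carrier, -0.60 ± 0.17 (adjusted p = 0.261). The groups of Cd36 overlapped, and its Zfp125 mean of 4.32 was just below the median level of all clusters, 4.34. The 2 that were higher at that p, named after their values were seen, were in Txnip and Fabp3. A cluster of Txnip, an inhibitor of thioredoxin, had 0.38 ± 0.11 (adjusted p = 0.304). A cluster of Fabp3, the heart fatty acid binding protein, had 0.25 ± 0.09 (adjusted p = 0.405). The other clusters of these genes overlapped between groups, with 0.08 ± 0.10 for the one shared by Txnip and Gm15441 and 0.00099 ± 0.14 for that of Fabp3. Of the regulators, Klb, the co-receptor for Fgf21, had 0.36 ± 0.14 and Lpin1, a phosphatidate phosphatase and coactivator, -0.19 ± 0.08, and Ppara itself had a change of -0.23 ± 0.14 (interval -0.54 to 0.08, adjusted p = 0.661). In fatty acid activation, Acsm5 and Acsl4, which form acyl-CoA from medium and from long, highly unsaturated chains, had -0.38 ± 0.10 and -0.25 ± 0.08, the former at a level below the median of all clusters. Slc22a5, the carnitine importer of the plasma membrane, had 0.26 ± 0.08 and Bbox1, the last enzyme of carnitine synthesis, -0.22 ± 0.09 in a dim cluster. Hsd17b10, a mitochondrial hydroxyacyl-CoA dehydrogenase, was lower without overlap, by -0.34 ± 0.08 (adjusted p = 0.197), and Acad9, an assembly factor of respiratory complex I from the acyl-CoA dehydrogenase family, was higher, by 0.21 ± 0.09. Of the AMPK subunit genes, Prkab1 had -0.16 ± 0.10, and a cluster shared by Prkag2os1 and Prkag2 had 0.23 ± 0.09. The thioesterases Acot9 and Baat had -0.19 ± 0.14 and -0.15 ± 0.11. Pdk1, the pyruvate dehydrogenase kinase that hypoxia induces, had -0.39 ± 0.14 (adjusted p = 0.411), and Pdpr, a regulatory subunit of the opposing phosphatase, had 0.20 ± 0.11.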

How the data were processed

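RNA from 8 AML12 samples was measured on Affymetrix MoGene 2.0 ST arrays. The table deposited by the authors holds 41345 transcript clusters in log2 units, as read from its values (array medians 4.32 to 4.37). Per the submitters' processing notes it came from Affymetrix Expression Console and Transcriptome Analysis Console. Background correction, normalization, versions and genome build: not given in the sources used here. The values were used as they stand. Arrays have no read depth, and their number limits the precision (median SD within a group over all clusters 0.17 in EV and 0.15 in Zfp125 cells). Pearson correlations between 2 arrays were 0.977 to 0.984, and no date or batch was given.

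Clusters were named through the platform annotation, with symbols updated by Entrez identifier to the GRCm38.p6 RefSeq table: 23521 carried 1 symbol, 1814 several and 16010 none here. All clusters entered 1 linear model (lmFit, eBayes) of limma 3.58.1 under R 4.3.3, adjusted by the Benjamini-Hochberg method over all clusters, two-sided, with a threshold of 0.05. The fit was also run on simulated data with known changes. The outcome is not given here, and no result above rests on it. No test over a list was made. Changes of 61 clusters passed, 10 higher and 51 lower. Members and lists were chosen with earlier results of these data known. Values on every array are given for the 3 members with the smallest p in each class, for all members of classes of up to 4 genes, and for some others chosen after their values were seen (Cpt1a, Acadvl, Etfdh, Hadha, Hadhb). From each other list the 2 clusters with the smallest p are named. Acot5, Acot6, Ppara and the second clusters of Phyh, Txnip and Fabp3 were added after values were seen. Upstream sequences are RefSeq's. Alignments used Biopython 1.88 and plots matplotlib 3.10.9. Same-numbered arrays were checked for pairing by correlating deviations from group means (r = -0.04, -0.02, 0.03 and -0.01 for numbers 1 to 4) and were not treated as pairs.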

Additional observations from a re-analysis of the deposited data

Results flagged for a closer look

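Of 120 groups of 4 values examined (the member clusters and the other clusters named by rule, in each group of arrays), 6 held an array whose gap to the nearest other took more of the group's range than Dixon's 95% critical value, and chance gives about 1 in 20. Acaa2 was 8.56 on EV replicate 4 against 8.23 to 8.26 on the other EV arrays, and Acadl was 8.71 on EV replicate 1 against 8.55 to 8.56. Etfa was 5.79 on EV replicate 1 against 5.58 to 5.60, and cluster 17369232 of Crat was 6.75 on Zfp125 replicate 2 against 6.54 to 6.56. Outside the members, Pex14 was 5.85 on Zfp125 replicate 3 against 5.98 to 5.99, and Acot9 was 5.86 on EV replicate 1 against 5.33 to 5.38.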

How the results depend on the processing

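None of the member clusters passed the adjusted test in any of the 19 alternatives in which it was tested, 11 of them other settings and 8 of them the omission of 1 array, and the lowest adjusted p reached was 0.092. The sign of the change was kept in 659 of 682 values and turned in 23, all of these on omission of 1 array, in 9 clusters with small changes. On omission of 1 array, Acaa1a ranged from -0.037 to 0.094, Acaa1b from -0.17 to 0.024, Acot1 from -0.0089 to 0.29, Acot4 (cluster 17277146) from -0.017 to 0.10, Crot from -0.034 to 0.094, Etfdh from -0.13 to 0.074, Fgf21 from -0.0059 to 0.14, Hadhb from -0.052 to 0.20 and Pdk4 from -0.050 to 0.032. The count of changed clusters in the whole table, 61, was 232 among clusters at or above the median level, 94 at or above the 25th percentile, 196 with a trended and robust prior, 4 without moderation, 240 among genes with 1 symbol, 260 among clusters with a symbol and 16 to 61 on omission of 1 array (39, 29 and 26 without EV replicates 1, 3 and 4, and 16, 17 and 20 without Zfp125 replicates 1, 2 and 3). Median centring gave 4 higher and 48 lower, quantile normalization 12 higher and 59 lower. With the replicate number as a block 0 clusters passed, and 3 members were lower at an unadjusted p under 0.05. Members higher at that p were 0 with all arrays, 1 with quantile normalization, among genes with 1 symbol and among clusters with a symbol, 2 at or above the median level, with a trended prior or without moderation, and 0 to 2 on omission of 1 array. Those lower, 5, were 3 to 5 on omission. Members apart between groups were 1 to 3 higher and 5 to 6 lower on omission. With 1 array fewer, groups come apart more easily. The shares of all clusters at that p, or apart, were not taken for any of these alternatives, so these member counts cannot be set against them. Of the other lists, 2 clusters passed at or above the median level, 1 at or above the 25th percentile, 1 with a trended prior, 4 among genes with 1 symbol, 4 among clusters with a symbol and 0 to 1 on omission. Class medians on omission ran from 0.0061 (without Zfp125 replicate 2) to 0.14 for thioesterases, -0.12 to 0.024 for peroxisomal and -0.09 to 0.05 for mitochondrial clusters. The causes were not tested.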
